A study of Mus musculus with 28 samples.

Results

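The 8 genes described here, Dusp1, Dusp2, Dusp4, Dusp6, Dusp10, Spry1, Spry2 and Spred1, encode feedback inhibitors of the mitogen-activated protein kinase (MAPK) pathways. They were taken by name, each through the brightest of its probe sets with 1 gene symbol by mean log2 intensity, and make up 8 of the 17097 genes tested. Messenger RNA was measured on Affymetrix arrays in total CD4+ T cells taken from the spleen of female mice, aged 12 weeks, of 3 strains. Sle1b.BACSlamf6-H1, written Sle1b.BAC, is B6.Sle1b with an added bacterial artificial chromosome named for the H1 form of Slamf6. B6.Sle1b carries a lupus-associated interval of chromosome 1, with the SLAM receptor genes, on the C57BL/6 background, and Sle1b.BAC shares that interval. C57BL/6, called WT in the titles, is the strain without it. Cells of each strain were left unstimulated or were kept on plate-bound antibody to CD3 (clone 145-2C11, 0.1 µg/ml) for 4 h or 24 h. The stimulus engages the T cell receptor, and no costimulatory antibody is named in the labels. They also name no cells kept for 4 h or 24 h without the antibody. In the comparisons with unstimulated cells, anti-CD3 and time in culture therefore cannot be told apart. Sle1b.BAC and B6.Sle1b had 3 arrays at each time, as did C57BL/6 unstimulated and at 4 h. C57BL/6 at 24 h had 2 arrays titled biological, beside 2 titled technical that entered no main comparison. The labels do not say whether arrays of a group came from separate mice, and the p-values rest on the spread among arrays alone, part of which may be technical. The RNA came from whole preparations, in which fewer cells of a type and less RNA per cell cannot be told apart.

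Receptor signals in T cells pass through Ras to the kinases of the ERK branch, and through parallel cascades to JNK and p38. Dual-specificity phosphatases (DUSPs) remove the activating phosphates from these kinases. Dusp1, Dusp2 and Dusp4 encode nuclear enzymes of this family, Dusp6 a cytoplasmic enzyme selective for ERK, and Dusp10 an enzyme that prefers JNK and p38. Sprouty and Spred proteins act further upstream and limit Ras-ERK signalling, Spred1 by bringing the Ras GTPase-activating protein neurofibromin to the membrane. Several of these genes are themselves induced by ERK activity, which makes them feedback regulators.

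The values are log2 of the deposited intensity, and the number of arrays limits their precision. Background, the 95th percentile of 23 non-specific control probe sets, lay at log2 2.76 to 3.21, and the means of all 8 genes were above it in all 9 groups. The 6 measured CD4 T cell markers, Cd4 and Cd3e among them, were above background on every array. The array's 75th percentile of intensity, its brightness, was 34.8 to 53.3 in unstimulated, 34.2 to 49.7 in 4 h and 35.6 to 46.9 in 24 h arrays. Outside 24 h the dimmest arrays were Sle1b.BAC 4 h array 2, B6.Sle1b unstimulated array 3 and C57BL/6 unstimulated array 2. The dimmest array of a group held the lowest Dusp4 value in 9 of the 9 groups, the lowest Dusp1 and Dusp6 values in 8 and the lowest Dusp10 value in 4, against a median of 6 groups over 5157 genes with a mean log2 above 6. Results are therefore also given without those 3 arrays where this changes them. B6.Sle1b 24 h array 3 was as dim as B6.Sle1b unstimulated array 3 (brightness 35.6 on both) but stayed in. Leaving out the 3 arrays thus removes dim arrays only on the unstimulated and 4 h side, and is no even check of brightness. Differences are log2 ± standard error (SE) from 1 limma fit, called where the Benjamini-Hochberg adjusted p over all genes was under 0.05.

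After 4 h and 24 h on anti-CD3 these genes differed from unstimulated cells in both directions. At 24 h against unstimulated, 3 of the 8 rose and 3 fell in Sle1b.BAC, where 17.2% of all genes rose and 11.9% fell. In B6.Sle1b 3 rose and 3 fell (14.8% and 13.4% of all genes), and in C57BL/6 3 rose and 4 fell (15.7% and 8.6%). Dusp1, Dusp10 and Dusp4 fell and Dusp6, Spred1 and Spry1 rose at 24 h in each of the 3 strains, while Spry2 was called lower in C57BL/6 and Dusp2 was called in none. At that time 3 of the 8 had all arrays above the unstimulated arrays of the strain and 4 had all arrays below them, in each strain, and the shares of all genes that did so were 27.4% and 19.4% in Sle1b.BAC, 21% and 15.5% in B6.Sle1b and 24.9% and 14.3% in C57BL/6. At 4 h the counts were 2 higher and 3 lower in Sle1b.BAC (4.22% and 6.35% of all genes), 2 and 2 in B6.Sle1b (2.57% and 3.12%) and 1 and 2 in C57BL/6 (4.08% and 2.97%). Averaged over the 3 strains, a comparison added after the values had been seen, 5 of 8 were called at 4 h (18.2% of all genes) and 7 of 8 at 24 h (40.4%). The median difference of the 8 genes in that average was -0.10 at 4 h and -0.62 at 24 h, beside 0.02 and 0.06 over all genes.

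**Figure D1:**
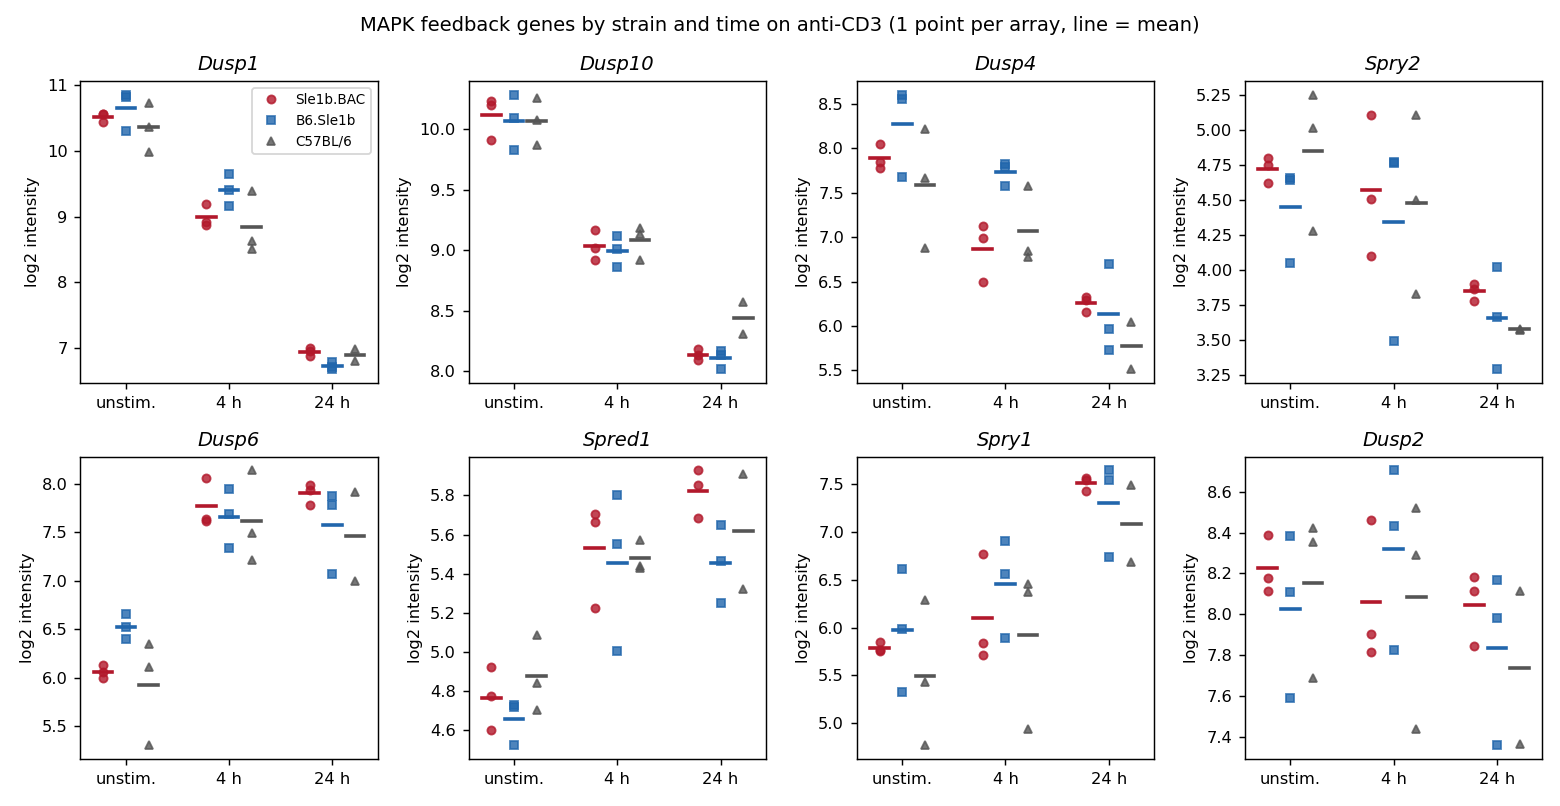
Log2 intensity of the 8 genes (y axis, 1 panel per gene, axes scaled separately) in unstimulated cells and after 4 h and 24 h on anti-CD3 (x axis), with Sle1b.BAC, B6.Sle1b and C57BL/6 from left to right at each time, 1 point per array and a line at the group mean (n = 3 arrays, 2 for C57BL/6 at 24 h). Dusp1 and Dusp10 step down at both times, Dusp6 steps up by 4 h and stays there, Spry1 is highest at 24 h, and the Dusp2 groups overlap.

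Dusp1, which encodes a nuclear phosphatase of p38, JNK and ERK, had the largest response of the 8 at 24 h. Its log2 intensity was 10.56, 10.56 and 10.44 in unstimulated Sle1b.BAC cells, 9.20, 8.87 and 8.92 at 4 h and 6.88, 6.96 and 7.0 at 24 h. The B6.Sle1b arrays read 10.82, 10.85 and 10.29 unstimulated, 9.40, 9.65 and 9.16 at 4 h and 6.79, 6.72 and 6.68 at 24 h. Those of C57BL/6 read 10.73, 9.98 and 10.36, then 9.38, 8.63 and 8.51, then 6.99 and 6.80. In every strain all unstimulated arrays lay above all 4 h arrays, and all 4 h arrays above all 24 h arrays. At 4 h Dusp1 fell by 1.52 ± 0.20 in Sle1b.BAC (adjusted p = 2.13e-05), by 1.25 ± 0.20 in B6.Sle1b (adjusted p = 0.000275) and by 1.51 ± 0.20 in C57BL/6 (adjusted p = 2.25e-05). By 24 h the level was 11.9-fold lower than in unstimulated cells in Sle1b.BAC (-3.58 ± 0.20, adjusted p = 1.59e-11), 15.2-fold lower in B6.Sle1b (-3.93 ± 0.20, adjusted p = 4.27e-12) and 11-fold lower in C57BL/6 (-3.46 ± 0.23, adjusted p = 2.23e-10).

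Dusp10, whose product acts on JNK and p38, followed the same course with a smaller span. In Sle1b.BAC it measured 10.20, 10.23 and 9.91 unstimulated, 9.02, 8.92 and 9.17 at 4 h and 8.18, 8.13 and 8.10 at 24 h. In B6.Sle1b it measured 10.09, 10.28 and 9.83, then 8.86, 9.12 and 9.01, then 8.02, 8.14 and 8.17. In C57BL/6 it measured 10.26, 9.87 and 10.07, then 9.14, 8.92 and 9.18, then 8.31 and 8.57. No 2 times of a strain overlapped, and the spread among arrays was the smallest of the 8 genes (within-group SD 0.15). The 4 h difference was -1.08 ± 0.13 (adjusted p = 6.98e-06) in Sle1b.BAC, -1.07 ± 0.13 (adjusted p = 1.05e-05) in B6.Sle1b and -0.99 ± 0.13 (adjusted p = 2.18e-05) in C57BL/6. At 24 h it was -1.98 ± 0.13 (adjusted p = 1.33e-10), -1.96 ± 0.13 (adjusted p = 1.62e-10) and -1.63 ± 0.15 (adjusted p = 2.16e-08) in the same order of strains, or 3.94-, 3.89- and 3.09-fold lower. The step between 4 h and 24 h was called as well in Sle1b.BAC (-0.90 ± 0.13, adjusted p = 1.39e-05), B6.Sle1b (-0.89 ± 0.13, adjusted p = 1.84e-05) and C57BL/6 (-0.64 ± 0.15, adjusted p = 0.00261). That of C57BL/6 was not called without its array 1 at 24 h (-0.51, adjusted p = 0.0806). A second, dim probe set of Dusp10 fell at 24 h in the 3 strains too, with differences of -0.65, -0.87 and -1.12 (adjusted p over all probe sets = 0.00241, 0.000170 and 3.90e-05), but it lay at background in the 24 h groups, so these sizes are not exact.

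Dusp4, another nuclear MAPK phosphatase, fell at 24 h in each strain, with a wider spread among arrays than Dusp1 and Dusp10. Sle1b.BAC cells measured 7.85, 8.05 and 7.78 unstimulated, 6.99, 6.49 and 7.12 at 4 h and 6.29, 6.16 and 6.33 at 24 h. B6.Sle1b cells measured 8.60, 8.55 and 7.68, then 7.79, 7.82 and 7.58, then 6.70, 5.97 and 5.74. C57BL/6 cells measured 8.22, 6.87 and 7.66, then 7.58, 6.84 and 6.78, then 6.05 and 5.51. Unstimulated arrays all lay above the 24 h arrays of their strain, whereas unstimulated and 4 h arrays overlapped in B6.Sle1b and C57BL/6. At 24 h Dusp4 differed by -1.63 ± 0.31 (adjusted p = 0.0002) in Sle1b.BAC, -2.14 ± 0.31 (adjusted p = 9.03e-06) in B6.Sle1b and -1.81 ± 0.34 (adjusted p = 0.000290) in C57BL/6. At 4 h it was called in Sle1b.BAC (-1.03 ± 0.31, adjusted p = 0.0334), and it measured -0.55 ± 0.31 (adjusted p = 0.478) in B6.Sle1b and -0.52 ± 0.31 (adjusted p = 0.487) in C57BL/6. Without the 3 dim arrays the 4 h fall was called in those strains too (-0.85, adjusted p = 0.0288, and -0.88, adjusted p = 0.0207). From each of these comparisons the removal took only an unstimulated array, the one with the lowest Dusp4 value of its group (7.68 and 6.87). Dropping it widens the fall by construction, so these calls are no support for a 4 h fall. The 4 h call in Sle1b.BAC was lost without array 1, 2 or 3 of the unstimulated cells (adjusted p = 0.0848, 0.129 and 0.0588) or array 2 at 4 h (adjusted p = 0.182). Averaged over strains the 4 h difference was -0.70 ± 0.18 (adjusted p = 0.00629).

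The 250 bases before the start site are shown for Dusp1 and Dusp10, the genes with the clearest falls, for Dusp6, which rose by 4 h, and for Dusp2, which met no call. They come from RefSeq on GRCm38.p6, where 7 of the 8 genes had an entry and Dusp4 had none. The stretches lie at chr17:26508473-26508722 (- strand) for Dusp1, chr1:184034131-184034380 (+ strand) for Dusp10, chr10:99262981-99263230 (+ strand) for Dusp6 and chr2:127335909-127336158 (+ strand) for Dusp2. They are written 5′ to 3′ on the strand of the gene, with capitals at matches to the motifs named after them.
Dusp1: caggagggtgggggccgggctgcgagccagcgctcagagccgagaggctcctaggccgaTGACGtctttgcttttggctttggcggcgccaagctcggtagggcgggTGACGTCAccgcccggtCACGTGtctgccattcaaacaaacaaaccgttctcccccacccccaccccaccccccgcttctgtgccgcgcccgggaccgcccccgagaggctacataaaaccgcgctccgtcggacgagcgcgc
Dusp10: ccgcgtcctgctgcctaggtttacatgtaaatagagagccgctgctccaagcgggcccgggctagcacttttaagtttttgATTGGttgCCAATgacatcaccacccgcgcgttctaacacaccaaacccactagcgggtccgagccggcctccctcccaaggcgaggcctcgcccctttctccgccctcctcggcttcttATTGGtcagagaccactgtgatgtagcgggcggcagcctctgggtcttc
Dusp6: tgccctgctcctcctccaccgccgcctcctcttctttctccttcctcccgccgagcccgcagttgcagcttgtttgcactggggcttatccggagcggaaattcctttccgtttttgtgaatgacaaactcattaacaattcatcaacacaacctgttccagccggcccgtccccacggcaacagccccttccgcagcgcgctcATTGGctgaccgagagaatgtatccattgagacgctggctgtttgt
Dusp2: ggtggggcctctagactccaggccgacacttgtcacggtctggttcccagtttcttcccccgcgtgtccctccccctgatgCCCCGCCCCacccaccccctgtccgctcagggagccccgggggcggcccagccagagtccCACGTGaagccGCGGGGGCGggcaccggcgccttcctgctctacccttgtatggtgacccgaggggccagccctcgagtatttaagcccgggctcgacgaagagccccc
Motifs were searched on both strands of these 250 bases. The cyclic AMP response element TGACGTCA matched 1 of the 7 genes, Dusp1, 143 bases before the start, and 1.55% of 32851 promoters of that length hold it. Its shorter core TGACG, which overlaps it, matched Dusp1 at a further place 191 bases before the start (17.8% of promoters hold it). The E-box CACGTG matched Dusp1 and Dusp2 (6.02%), the EGR motif GCGNGGGCG and the SP1 motif GGGGCGGGG matched Dusp2 (4.7% and 10.4%), and CCAAT matched Dusp10, Dusp6 and Spry1 (33.8%). The AP-1 motif TGANTCA (6.75% of promoters), the ETS motif CCGGAAGT (2.88%), the motif TATAAA (12.4%), the forkhead motif TGTTTAC (3.17%) and the serum response element core known as the CArG box (1.47%) matched none of the 7 in this window. A match describes the letters and is no evidence of binding.

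Dusp6, the cytoplasmic ERK phosphatase, rose by 4 h and was called higher at 24 h too. In Sle1b.BAC the arrays read 6.06, 6.13 and 6.0 unstimulated, 8.06, 7.61 and 7.63 at 4 h and 7.94, 7.99 and 7.78 at 24 h. In B6.Sle1b they read 6.52, 6.66 and 6.40, then 7.69, 7.95 and 7.34, then 7.78, 7.88 and 7.07. In C57BL/6 they read 6.34, 5.30 and 6.11, then 7.49, 8.14 and 7.21, then 7.91 and 7.0. Every stimulated array lay above the unstimulated arrays of its strain, and the 4 h and 24 h arrays overlapped. The 4 h rise was 3.26-fold in Sle1b.BAC (1.71 ± 0.27, adjusted p = 0.000201), 2.20-fold in B6.Sle1b (1.13 ± 0.27, adjusted p = 0.0128) and 3.23-fold in C57BL/6 (1.69 ± 0.27, adjusted p = 0.000242). That of B6.Sle1b was not called without its array 2 at 4 h (0.99, adjusted p = 0.0794). At 24 h the rise was 1.84 ± 0.27 (adjusted p = 1.35e-05), 1.05 ± 0.27 (adjusted p = 0.00505) and 1.54 ± 0.31 (adjusted p = 0.000512) in the same order. Between 24 h and 4 h the mean of the strains differed by -0.03 ± 0.16 (adjusted p = 0.926), with a 95% interval of -0.38 to 0.31.

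Spred1 also stood higher by 4 h. Its log2 intensity in Sle1b.BAC was 4.60, 4.77 and 4.92 unstimulated, 5.67, 5.22 and 5.70 at 4 h and 5.69, 5.86 and 5.93 at 24 h. In B6.Sle1b it was 4.72, 4.72 and 4.52, then 5.80, 5.55 and 5.0, then 5.46, 5.65 and 5.25. In C57BL/6 it was 5.08, 4.70 and 4.84, then 5.44, 5.57 and 5.43, then 5.91 and 5.32. Stimulated arrays did not overlap with the unstimulated arrays of their strain. At 4 h the rise was called in Sle1b.BAC (0.77 ± 0.18, adjusted p = 0.00844) and B6.Sle1b (0.80 ± 0.18, adjusted p = 0.00907), and the C57BL/6 difference was 0.61 ± 0.18, not called (adjusted p = 0.05, just over the threshold). At 24 h it rose by 1.06 ± 0.18 (adjusted p = 8.78e-05), 0.80 ± 0.18 (adjusted p = 0.00179) and 0.74 ± 0.21 (adjusted p = 0.00915) in Sle1b.BAC, B6.Sle1b and C57BL/6. The C57BL/6 value at 24 h was 0.45 without its array 1 (adjusted p = 0.270), and that call was also lost in a fit of the compared groups alone (adjusted p = 0.0877). The 4 h calls were lost without array 1 of B6.Sle1b at 4 h (adjusted p = 0.0837) or in that strain's compared groups alone (adjusted p = 0.153) and, in Sle1b.BAC, without array 1 unstimulated or array 3 at 4 h (adjusted p = 0.0549 and 0.0504). Of the 4 other Spred1 probe sets, the next brightest was higher at 24 h as well (1.56, 0.85 and 1.25, adjusted p over all probe sets = 0.000145, 0.0291 and 0.00473), and the remaining ones were not called at 4 h or 24 h in any strain.

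Spry1, an inhibitor of Ras-ERK signalling, rose at 24 h. Sle1b.BAC measured 5.77, 5.75 and 5.85 unstimulated, 6.77, 5.71 and 5.84 at 4 h and 7.56, 7.54 and 7.43 at 24 h. B6.Sle1b measured 5.98, 6.61 and 5.33, then 6.56, 6.91 and 5.89, then 7.64, 7.54 and 6.74. C57BL/6 measured 6.29, 4.77 and 5.43, then 6.37, 6.45 and 4.94, then 7.49 and 6.68. Unstimulated and 4 h arrays overlapped in every strain, whereas all 24 h arrays lay above the unstimulated arrays of their strain. At 24 h Spry1 was 3.30-fold higher in Sle1b.BAC (1.72 ± 0.42, adjusted p = 0.00273), 2.52-fold higher in B6.Sle1b (1.33 ± 0.42, adjusted p = 0.0194) and 3.0-fold higher in C57BL/6 (1.59 ± 0.47, adjusted p = 0.0146). At 4 h it measured 0.32 ± 0.42 (adjusted p = 0.710), 0.48 ± 0.42 (adjusted p = 0.774) and 0.42 ± 0.42 (adjusted p = 0.795) in those strains, and was not called. Averaged over the strains the 4 h difference was 0.41 ± 0.24 (adjusted p = 0.314). It was called with brightness as a covariate (0.58, adjusted p = 0.0104) and with array weights (0.61, adjusted p = 0.0234), whose estimation stopped before reaching its tolerance. At 24 h against 4 h the average of the strains was higher by 1.14 ± 0.25 (adjusted p = 0.000840). Spry1 had the widest spread of the 8 (within-group SD 0.57), and its 24 h call was kept with each array left out in Sle1b.BAC (highest adjusted p = 0.0112 over all settings) but not in the other strains. In C57BL/6 the call was lost without array 1 at 24 h (adjusted p = 0.214) or array 2 unstimulated (adjusted p = 0.0726), and in a fit of the compared groups alone (adjusted p = 0.0692). In B6.Sle1b it was lost without array 3 unstimulated (adjusted p = 0.0913), array 1 at 24 h (adjusted p = 0.0836) or array 2 at 24 h (adjusted p = 0.0701). It was also lost there without the 3 dim arrays (adjusted p = 0.0541).

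Spry2, the second Sprouty gene of the set, was lower at 24 h. Its arrays spanned 4.62 to 4.80 unstimulated and 3.78 to 3.90 at 24 h in Sle1b.BAC, 4.05 to 4.66 and 3.29 to 4.03 in B6.Sle1b, and 4.28 to 5.25 and 3.58 on both arrays in C57BL/6, with all 24 h arrays below the unstimulated arrays of their strain. The 24 h difference was called in C57BL/6 (-1.27 ± 0.38, adjusted p = 0.0147) and measured -0.88 ± 0.34 (adjusted p = 0.0567) in Sle1b.BAC and -0.79 ± 0.34 (adjusted p = 0.0890) in B6.Sle1b. Averaged over the strains it fell by 0.98 ± 0.20 (adjusted p = 0.000355), and at 4 h it measured -0.21 ± 0.19 (adjusted p = 0.572). Without the 3 dim arrays the 24 h fall was called in Sle1b.BAC (adjusted p = 0.0231) and B6.Sle1b (adjusted p = 0.0201) as well. No Sle1b.BAC array of these times was removed, so its difference stayed at -0.88 and only the SE fell, to 0.29. In B6.Sle1b the removal took the lowest unstimulated value (4.05) and kept the equally dim 24 h array (3.29), which widens the fall by construction. With the replicate number as a block the 24 h fall was also called in both strains (adjusted p = 0.0267 and 0.0475). The C57BL/6 call was lost without array 3 unstimulated (adjusted p = 0.07) or either array at 24 h (adjusted p = 0.0846 and 0.0790). A second Spry2 probe set lay at background in 8 of 9 groups.

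Dusp2, which encodes a phosphatase known from activated lymphocytes, gave no call at either time. Its arrays spanned 8.11 to 8.39 unstimulated, 7.82 to 8.46 at 4 h and 7.84 to 8.18 at 24 h in Sle1b.BAC, with overlap at every step. In B6.Sle1b they spanned 7.59 to 8.38, then 7.82 to 8.70, then 7.36 to 8.17, and in C57BL/6 7.69 to 8.42, then 7.44 to 8.52, then 7.36 to 8.11. The mean of the 3 strains differed by 0.02 ± 0.17 (adjusted p = 0.965) at 4 h and -0.26 ± 0.18 (adjusted p = 0.282) at 24 h. The 95% intervals of these differences were -0.34 to 0.38 and -0.64 to 0.11, so changes of a size within them could not be told from none. With array weights Dusp2 was called lower in the mean of the strains at 24 h against unstimulated (-0.33, adjusted p = 0.0330) and against 4 h (-0.43, adjusted p = 0.0403), and at 24 h against 4 h in B6.Sle1b (-0.58, adjusted p = 0.0452). The estimation of these weights stopped before reaching its tolerance, and no other setting called Dusp2.

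**Figure D2:**
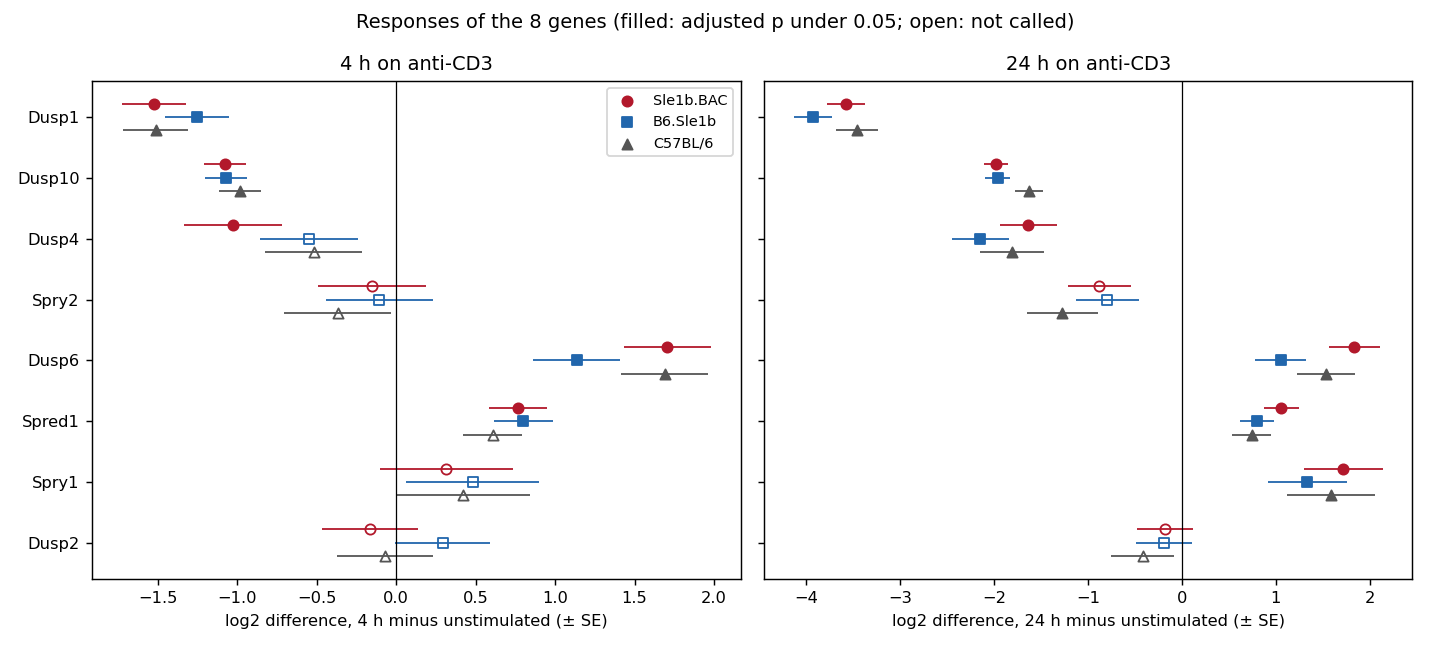
Log2 difference (x axis, ± SE) of each gene (y axis) at 4 h and 24 h minus unstimulated, in Sle1b.BAC, B6.Sle1b and C57BL/6 from top to bottom, with filled symbols for adjusted p under 0.05 in limma. Dusp1, Dusp10 and Dusp4 lie left of 0 and Dusp6, Spred1 and Spry1 right of 0 at 24 h in all 3 strains.

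Between 24 h and 4 h, 1 of the 8 genes rose and 2 fell in Sle1b.BAC (16.9% and 7.82% of all genes), 0 rose and 3 fell in B6.Sle1b (13.1% and 11.1%) and 0 rose and 3 fell in C57BL/6 (12% and 6.67%). Dusp1 had the largest difference, -2.05 ± 0.20 (adjusted p = 8.13e-08) in Sle1b.BAC, -2.67 ± 0.20 (adjusted p = 2.39e-09) in B6.Sle1b and -1.95 ± 0.23 (adjusted p = 1.62e-06) in C57BL/6. Dusp4 fell in B6.Sle1b (-1.59 ± 0.31, adjusted p = 0.000364) and C57BL/6 (-1.29 ± 0.34, adjusted p = 0.00876) and measured -0.61 ± 0.31 (adjusted p = 0.182) in Sle1b.BAC, where it was called without the 3 dim arrays (-0.79, adjusted p = 0.0186). That removal took the lowest Dusp4 value of Sle1b.BAC at 4 h, which widens the fall by construction. The C57BL/6 call of Dusp4 was lost without array 1 at 4 h (adjusted p = 0.0542) or array 2 at 24 h (adjusted p = 0.144). The gene that rose in Sle1b.BAC was Spry1 (1.40 ± 0.42, adjusted p = 0.0154), a call lost without array 2 or 3 at 4 h (adjusted p = 0.0733 and 0.0644) and with array weights (1.09, adjusted p = 0.109). In the mean of the strains 5 of 8 were called (34.6% of all genes), Spry1 higher and Dusp1, Dusp10, Dusp4 and Spry2 lower.

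Ordered by level, the 9 groups of Dusp1 ran from B6.Sle1b unstimulated (10.65 ± 0.31, SD, n = 3) to B6.Sle1b at 24 h (6.73 ± 0.06, n = 3), and 3 of the 8 steps between neighbours had arrays that did not overlap. These separated unstimulated from 4 h groups, 4 h from 24 h groups, and C57BL/6 from B6.Sle1b at 24 h. Dusp10 had 3 such steps as well, from Sle1b.BAC unstimulated (10.11 ± 0.18) at the top to B6.Sle1b at 24 h (8.11 ± 0.08) at the bottom. Dusp6 had 2, with Sle1b.BAC at 24 h highest (7.90 ± 0.11) and C57BL/6 unstimulated lowest (5.92 ± 0.55), and the steps lay between 24 h C57BL/6 and unstimulated B6.Sle1b cells and between unstimulated B6.Sle1b and Sle1b.BAC cells. Dusp4 had 1, between Sle1b.BAC at 4 h (6.87 ± 0.33) and Sle1b.BAC at 24 h (6.26 ± 0.09). Neighbouring groups overlapped at all 8 steps for Dusp2, Spry1, Spry2 and Spred1. The groups were sorted by these same means, and the share of all genes with such steps was not computed. With 2 or 3 arrays per group, these counts describe the arrays and are no evidence of a difference between strains.

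The comparison of strains asked whether the congenic interval or the added chromosome alters these genes. None of the 8 was called by limma between any 2 strains at any time or over the mean of the 3 times, 0 of 96 tests, with 8 at an unadjusted p under 0.05 and a lowest adjusted p of 0.495. The shares of all genes called were 0.0819%, 0%, 0% and 0.0819% for Sle1b.BAC against B6.Sle1b (unstimulated, 4 h, 24 h and the mean). For Sle1b.BAC against C57BL/6 they were 0.0585%, 0.0643%, 0.0351% and 0.228%, and for B6.Sle1b against C57BL/6 0.123%, 0.0409%, 0.0409% and 0.333%. The comparisons share groups, so their values are given side by side.

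Dusp4 came nearest to a call. Over the 3 times B6.Sle1b minus C57BL/6 measured 0.57 ± 0.18 (adjusted p = 0.495), with an unadjusted limma p of 0.00536 and a 95% interval of 0.19 to 0.95. Sle1b.BAC differed from B6.Sle1b by -0.37 ± 0.18 (adjusted p = 0.818), with an interval of -0.74 to -0.01. At 4 h the Dusp4 means were 6.87 ± 0.33 in Sle1b.BAC, 7.73 ± 0.13 in B6.Sle1b and 7.07 ± 0.45 in C57BL/6 (SD, n = 3 each), and the Sle1b.BAC arrays lay below all B6.Sle1b arrays, as those of 3.9% of all genes did. With array brightness as a covariate both differences over the 3 times were called, 0.61 for B6.Sle1b against C57BL/6 (adjusted p = 0.00570) and -0.50 for Sle1b.BAC against B6.Sle1b (adjusted p = 0.0382). With array weights, whose estimation stopped before reaching its tolerance, the first was called as well (0.67, adjusted p = 0.00377). Without the 3 dim arrays neither was called.

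Some other strain differences had 95% intervals that left out 0. Dusp1 at 4 h averaged 9.40 ± 0.24 in B6.Sle1b and 8.84 ± 0.47 in C57BL/6 (difference 0.56 ± 0.20, adjusted p = 1.0, 95% interval 0.14 to 0.98). Unstimulated Dusp6 averaged 6.52 ± 0.13 in B6.Sle1b and 5.92 ± 0.55 in C57BL/6 (0.60 ± 0.27, adjusted p = 1.0, interval 0.03 to 1.17), and the arrays did not overlap, as for 3.65% of all genes in that direction. Dusp10 at 24 h averaged 8.11 ± 0.08 in B6.Sle1b (n = 3) and 8.44 ± 0.18 in C57BL/6 (n = 2), a difference of -0.33 ± 0.15 (adjusted p = 0.994) with an interval of -0.64 to -0.03. Among the 8 genes, the difference of Sle1b.BAC from C57BL/6 over the 3 times ranged from -0.10 to 0.30. Whether the strains respond differently was tested as the difference between responses, at 4 h and 24 h for Sle1b.BAC minus B6.Sle1b and for B6.Sle1b minus C57BL/6. None of the 32 tests was called or had an unadjusted p under 0.05 (lowest adjusted p = 0.774; 0.00585% of all genes were called for Sle1b.BAC minus B6.Sle1b at 24 h and 0% in the remaining comparisons). The largest, Dusp6 at 24 h in Sle1b.BAC minus B6.Sle1b, measured 0.79 ± 0.39 (adjusted p = 0.988) with an interval of -0.02 to 1.59.

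**Figure D3:**
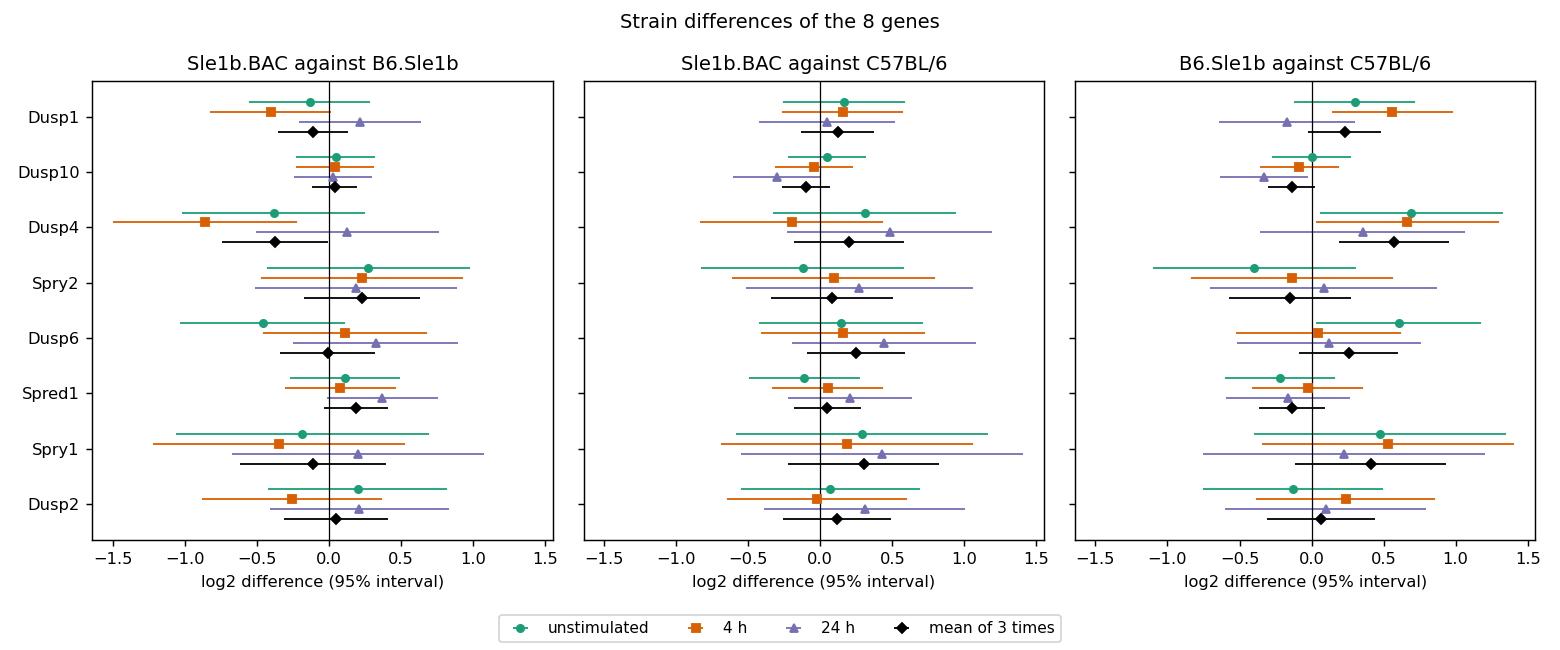
Log2 difference (x axis, with its 95% interval, not adjusted over genes) of each gene (y axis) between strains, at the 3 single times and as their mean. Most intervals cross 0 and no difference was called, and Dusp4 over the 3 times in B6.Sle1b against C57BL/6 has the lowest adjusted p.

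Markers of other cells were measured beside these results. The summed linear intensity of the 3 plasma cell markers, mostly Jchain, was 2438 to 6046 in unstimulated cells, 1746 to 5518 at 4 h and 245 to 1224 at 24 h over the 3 strains, so it was lower at 24 h, as Dusp1, Dusp10 and Dusp4 were. The 6 B cell markers summed to 279 to 638 unstimulated, 211 to 599 at 4 h and 228 to 491 at 24 h, with Pax5 above background on 1 of 26 arrays. Between strains the B cell sum was 264 to 429 in Sle1b.BAC, 211 to 418 in B6.Sle1b and 346 to 638 in C57BL/6. The 5 neutrophil markers summed to 96.7 to 778 in Sle1b.BAC, 74.1 to 647 in B6.Sle1b and 43.8 to 152 in C57BL/6. The 6 monocyte and macrophage markers summed to 64.2 to 102 unstimulated and 60.1 to 188 at 24 h, with Itgam at background on all 26 arrays. The 4 NK cell markers, of which Eomes and Klrd1 were the brightest, summed to 272 to 518 unstimulated and 403 to 691 at 24 h. The 2 erythroid markers, mostly Hba-a1, summed to 818 to 3797 unstimulated, 621 to 3621 at 4 h and 183 to 1754 at 24 h, with overlap between the times in Sle1b.BAC and C57BL/6 and lower values at 24 h on all B6.Sle1b arrays. By strain that sum was 183 to 2443 in Sle1b.BAC, 1458 to 3748 in B6.Sle1b and 577 to 3797 in C57BL/6. The median difference of the 2 markers over the 3 times was -0.94 for Sle1b.BAC against B6.Sle1b and 0.36 for B6.Sle1b against C57BL/6, with neither marker called. Alas2, the dimmer marker, was above background on 8 of 26 arrays. These signs are those of the Dusp4 differences. The CD4 T cell (-0.10 and 0.06), plasma cell (-0.01 and 0.45) and dendritic cell medians (-0.06 and 0.04) had them too, and the remaining lists did not. The 2 CD8 T cell markers summed to 41.7 to 58.6 unstimulated and 33.8 to 42.8 at 24 h, and the 4 dendritic cell markers to 38.5 to 52.6 and 40.1 to 50.9. The 6 CD4 T cell markers summed to 6659 to 7514 unstimulated and 4704 to 5815 at 24 h. Over the mean of the 3 times limma called 2 B cell markers and 1 NK cell marker lower in B6.Sle1b than in C57BL/6. It called 1 monocyte and macrophage marker higher there (0.333% of all genes were called). For Sle1b.BAC against C57BL/6 it called 1 B cell marker lower, and 1 neutrophil and 1 monocyte and macrophage marker higher (0.228%). No marker was called between strains at a single time or for Sle1b.BAC against B6.Sle1b. The part of such cells in the levels of the 8 genes was not tested.

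The rest of the pathway was read from lists chosen by function, or by family name for the DUSP, Sprouty and Spred genes. A shared name does not mean that each of these acts on MAPKs. Of 13 other DUSP genes measured, the numbers higher and lower at 24 h were 3 and 3 in Sle1b.BAC, 2 and 3 in B6.Sle1b and 3 and 2 in C57BL/6, and at 4 h 1 and 1 in Sle1b.BAC, 1 and 0 in B6.Sle1b and 1 and 0 in C57BL/6. The medians at 24 h were 0.01, 0.19 and 0.03 in that order of strains, beside medians over all genes of 0.06, 0.07 and 0.04. In C57BL/6, Dusp22 (1.16 ± 0.23, adjusted p = 0.000452) and Dusp19 (1.09 ± 0.17, adjusted p = 4.22e-05) rose at 24 h, and Dusp16, which acts on JNK and p38 (-1.0 ± 0.24, adjusted p = 0.00331), and Dusp11 (-0.99 ± 0.15, adjusted p = 2.48e-05) fell. Of the 4 other Sprouty and Spred genes, 0 were called at either time in Sle1b.BAC or C57BL/6, and Spred2 fell in B6.Sle1b at 24 h (-0.95 ± 0.29, adjusted p = 0.0157), a gene named after its value was seen.

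Among 11 Ras and MAPK cascade kinase genes, the numbers higher and lower at 24 h were 1 and 3 in Sle1b.BAC, 1 and 4 in B6.Sle1b and 1 and 2 in C57BL/6, with medians of -0.25, -0.31 and -0.17. At 4 h they were 0 and 3 in Sle1b.BAC, 0 and 1 in B6.Sle1b and 1 and 2 in C57BL/6. In C57BL/6 Map2k1, the kinase directly above ERK, rose at 4 h (0.77 ± 0.16, adjusted p = 0.00399) and 24 h (1.21 ± 0.18), and its 4 h difference was not called in Sle1b.BAC (0.23 ± 0.16, adjusted p = 0.434) or B6.Sle1b (0.51 ± 0.16, adjusted p = 0.0835). In C57BL/6 Braf fell at 4 h (-0.87 ± 0.24) and 24 h (-1.90 ± 0.27, adjusted p = 9.47e-06). Mapk14, which encodes p38 alpha, was lower at 4 h (-0.93 ± 0.19, adjusted p = 0.00311), and Mapk8, which encodes a JNK, at 24 h (-0.45 ± 0.15, adjusted p = 0.0289). Of 6 genes that link the receptor to Ras, 1 was called higher at 4 h in each strain, and it was Rasgrp1, the exchange factor that loads Ras with GTP in T cells (1.10 ± 0.15 in Sle1b.BAC, 1.33 ± 0.15 in B6.Sle1b and 1.51 ± 0.15 in C57BL/6, adjusted p = 2.95e-05, 3.66e-06 and 4.36e-07). Lat, an adaptor below the receptor, was called lower at 4 h in Sle1b.BAC (-0.72 ± 0.15, adjusted p = 0.00242), a gene named after its value was seen. At 24 h the numbers higher and lower among these 6 were 0 and 0 in Sle1b.BAC, 0 and 0 in B6.Sle1b and 1 and 0 in C57BL/6. Of 6 Ras GTPase-activating and diacylglycerol kinase genes, which oppose Ras, 0 rose and 3 fell at 24 h in each strain, with medians of -0.66, -0.47 and -0.59, and at 4 h the numbers were 0 and 3 in Sle1b.BAC, 0 and 0 in B6.Sle1b and 0 and 0 in C57BL/6. Those that fell at 24 h in C57BL/6 were Rasa3 (-2.04 ± 0.27, adjusted p = 3.58e-06), Dgka (-0.99 ± 0.21, adjusted p = 0.000825) and Rasa2 (-0.90 ± 0.21, adjusted p = 0.00216). Of 5 further MAPK phosphatase genes outside the DUSP family, 0 rose and 3 fell at 24 h in each strain, with Ppm1a (-0.80 ± 0.13), Ppm1d (-0.73 ± 0.23) and Ppp2ca (-0.45 ± 0.10) in C57BL/6, and at 4 h the numbers were 0 and 2 in Sle1b.BAC, 0 and 1 in B6.Sle1b and 0 and 1 in C57BL/6.

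Of 15 transcription factor and early response genes that ERK activity is known to induce, the numbers higher and lower were 3 and 2 in Sle1b.BAC, 3 and 2 in B6.Sle1b and 3 and 2 in C57BL/6 at 4 h, and 4 and 5 in Sle1b.BAC, 3 and 5 in B6.Sle1b and 4 and 5 in C57BL/6 at 24 h, with 24 h medians of 0.01, 0.14 and -0.06. Calls in this list lay in both directions. In C57BL/6 Egr1 was 3.10 ± 0.36 higher at 4 h (adjusted p = 3.94e-06) and Myc 2.30 ± 0.25 (adjusted p = 1.54e-06). Fosl2 (-4.26 ± 0.41, adjusted p = 6.21e-08) and Fos (-3.09 ± 0.31, adjusted p = 7.82e-08) were lower at 24 h. None of the 60 listed genes measured here was called between strains or in a difference between responses (lowest adjusted p = 0.350).

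**Figure D4:**
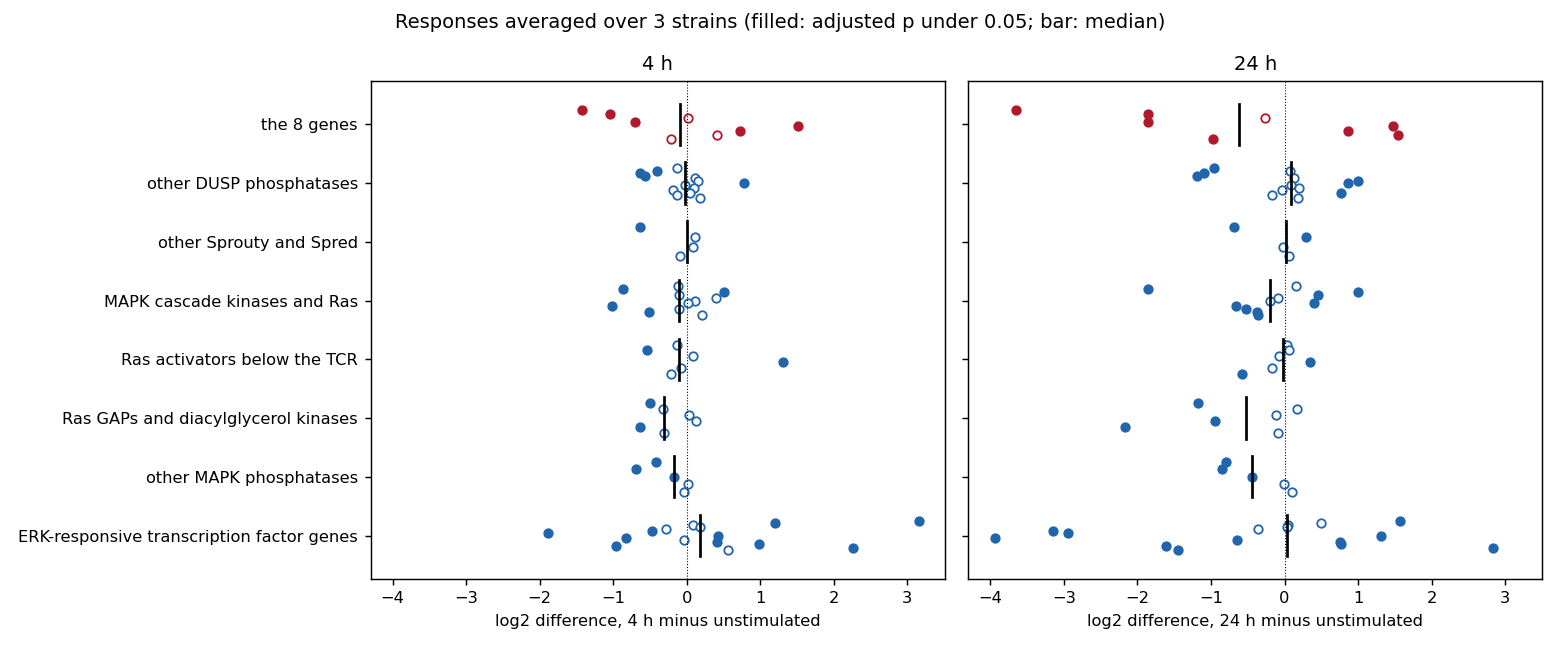
Log2 difference (x axis) averaged over the 3 strains at 4 h and 24 h minus unstimulated, 1 point per gene, for the 8 genes and 7 lists of pathway genes (y axis). Filled points have adjusted p under 0.05 and the bar is the list's median. The 8 genes and the ERK-responsive list spread to both sides of 0, with Dusp1 the leftmost of the 8.

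The genes whose log2 values ran most alike across the 26 arrays were found among 5151 genes with a mean log2 above 6 outside the 8. For Dusp1 they were Vps37b (r = 0.992) and C730049O14Rik (r = 0.992), for Dusp10 Stk4 (r = 0.991) and Tcp11l2 (r = 0.990) and for Dusp4 Bhlhe40 (r = 0.953) and Rab43 (r = 0.953). For Dusp6 they were Gfi1 (r = 0.941) and Agfg1 (r = 0.936), for Spry1 Rgs16 (r = 0.964) and Hnrnpll (r = 0.946) and for Spred1 Lcp1 (r = 0.916) and Actr3 (r = 0.907). For Spry2 they were Dap (r = 0.896) and Lemd2 (r = 0.883) and for Dusp2 Ier2 (r = 0.881) and Zc3h10 (r = 0.845). These Pearson correlations describe the arrays only, since the points share the 3 times on anti-CD3 and the brightness of each array, and no test is attached to them.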

How the data were processed

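The deposited values are linear intensities of 45141 probe sets per array (Affymetrix HT MG-430 PM), and per the submitters' processing notes the authors used RMA (its version is not given in the sources used here). In its usual form that method corrects background, scales arrays to a common distribution and sums up probes. The deposited values did not share 1 distribution. Over the 26 arrays titled biological the median intensity was 9.12 to 10.5 and the 75th percentile 34.2 to 53.3. Intensities therefore compare relative levels between arrays only within the limit of these differences in brightness. From these, log2 values were taken of the deposited intensities. Of the probe sets, 28898 carry 1 gene symbol, 551 carry several and 15692 carry none in the platform annotation, and 28689 of the first kind matched RefSeq genes of GRCm38.p6. The brightest single-symbol probe set stood for each of 17097 genes.

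One limma fit (version 3.58.1, R 4.3.3), with a mean for each of the 9 strain-by-time groups over the 26 arrays titled biological, gave 25 contrasts, and 3 means over the strains were added after the values were seen. P-values were adjusted by Benjamini-Hochberg over all genes of a contrast and called under 0.05. The fit was tested on simulated data with independent noise for each gene and array. Such data lack the brightness that genes of a real array share, so the test does not show how the fit handles it. The 8 genes, the pathway and marker lists, the comparisons and the set of 3 dim arrays were chosen with earlier results of these data known. The text names all 8 genes, from each pathway list up to 4 of the genes called in C57BL/6 by absolute difference, and the 2 genes most correlated with each of the 8. Some genes of the lists were not analysed here. The 2 arrays titled technical were left out because the labels do not say which RNA they repeat. No 2 arrays were identical.

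The groups share replicate numbers 1 to 3. Same-numbered arrays deviated from their group means with a median correlation of 0.127 for number 1 (-0.22 to 0.82). The median was -0.07 for number 2 (-0.81 to 0.79) and 0.03 for number 3 (-0.64 to 0.73). The main fit did not take the numbers to pair the samples. These correlations pool the strains, so they cannot decide whether same-numbered arrays of 1 strain shared a preparation across times. In B6.Sle1b array 3 was the dimmest of its group at each time.

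Alternatives were a second quantile normalization, median centring, the mean of all probe sets, a filter at background, a robust trend, array weights, brightness as a covariate, the compared groups alone, the technical arrays added or averaged in, the number as a fixed or random block, the 3 dim arrays left out, and each array left out in turn.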

Additional observations from a re-analysis of the deposited data

Results flagged for a closer look

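The 2 arrays of C57BL/6 at 24 h titled technical lie outside the comparisons, and 3 of the genes stood above every unstimulated C57BL/6 array on both of them. Dusp6 measured 8.09 on the array numbered 3 and 7.11 on the array numbered 4. Spry1 measured 7.75 and 6.86 in that order, and Spred1 6.08 and 5.91. The flag looked only for values above the unstimulated arrays. Dusp1 (7.02 and 7.11), Dusp10 (8.29 and 8.55), Dusp4 (6.22 and 5.66) and Spry2 (3.93 and 3.75) lay below all of those on both technical arrays. The share of all genes that did either was not computed. Since the labels do not say which RNA these arrays repeat, they are no separate evidence for the 24 h differences. No group held enough arrays for the test of a single outlying sample.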

How the results depend on the processing

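Of 57 called differences of the 8 genes, 734 of 741 values under 13 alternative settings kept their call and 7 lost it. With single arrays left out, 1460 of 1482 values kept it and 22 lost it. Many of these removals took an array outside the groups compared, which leaves the difference itself as it was. All 22 losses came from arrays of the groups compared, so the share kept overstates how firm the calls are. The 57 also include the means over the strains, which use the same arrays again. No call turned its direction. Leaving out 1 array gave 3 to 5 called genes in Sle1b.BAC at 4 h, 6 to 7 at 24 h and 2 to 3 at 24 h against 4 h. In B6.Sle1b it gave 3 to 4, 5 to 7 and 3 to 4, and in C57BL/6 3 to 4, 4 to 7 and 2 to 4. The 4 came without array 1 of C57BL/6 at 24 h, where Spry1, Spry2 and Spred1 were lost, and the lowest 3 of Sle1b.BAC without unstimulated array 1. The means over the strains stayed at 5, 7 and 5, and all strain and response differences at 0.

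Array weights, whose estimation stopped before reaching its tolerance, gave 6 called genes in C57BL/6 at 4 h and 5 in B6.Sle1b at 24 h against 4 h. They also called 2 in unstimulated Sle1b.BAC against B6.Sle1b (Dusp4 and Dusp6 lower), 2 in unstimulated B6.Sle1b against C57BL/6 (Dusp1 and Dusp4 higher), and 1 each in B6.Sle1b against C57BL/6 at 4 h (Dusp1) and over the 3 times (Dusp4), and the Sle1b.BAC call of Spry1 at 24 h against 4 h was lost. A fit of the compared groups alone lost Spry1 and Spred1 in C57BL/6 at 24 h and Spred1 in B6.Sle1b at 4 h. Brightness as a covariate gave 5 called genes at 24 h against 4 h in Sle1b.BAC and 5 in C57BL/6, and 1 (Dusp4) over the 3 times in both Sle1b.BAC against B6.Sle1b and B6.Sle1b against C57BL/6. Without the 3 dim arrays the 24 h against 4 h counts were 5 in Sle1b.BAC (Dusp4 and Spry2 added) and 5 in C57BL/6 (Spry1 and Spry2 added). In Sle1b.BAC the removal took the 4 h array with the lowest Dusp4 and Spry2 values, which widens these falls by construction. No C57BL/6 array at 4 h or 24 h was removed, so the differences there stayed as they were. Median centring gave 3 in Sle1b.BAC at 4 h, without Dusp4 and Spred1. The cause was not tested.

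With the replicate number as a block all 57 calls were kept and Spry2 was added in Sle1b.BAC at 24 h (7 called), in B6.Sle1b at 24 h (7 called) and in C57BL/6 at 24 h against 4 h (4 called). The 2 or 3 arrays of a group limit the calls.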
